A study of Arabidopsis thaliana with 8 samples.

Results

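hAT elements are DNA transposons that move by excision and reinsertion, a process catalysed by a transposase that acts on short inverted repeats at the element's ends. The superfamily takes its name from hobo of Drosophila, Activator of maize and Tam3 of snapdragon. Copies that keep a transposase gene can move themselves, while shorter copies without one depend on an enzyme supplied by another copy. In Arabidopsis most transposons are held silent by DNA methylation together with dimethylation of lysine 9 of histone H3 (H3K9me2). The members described here are all intervals annotated as transposable elements of the superfamily DNA/HAT in the deposited TAIR10 count tables. They number 1035 of 31189 transposable elements and of 109972 intervals in all, and fall into 22 families.

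Chromatin of Arabidopsis thaliana Col-0 had been immunoprecipitated and sequenced (ChIP-seq) from leaves and from a suspension cell culture. Leaves came from wild-type plants grown on MS agar. The culture is a single Col-0 cell line kept with 1.1 mg/l of the synthetic auxin 2,4-D, transferred to fresh medium every 7 d and fixed in 1% paraformaldehyde for 15 min. The antibodies recognised histone H3, H3K9me2, H3K27me3 (the Polycomb mark of silent developmental genes) and H3K4me3 (a mark of active genes). Each antibody was used once per sample type, giving 8 libraries and no replicates. Every interval below covers counting error alone, not variation between plants, cultures or immunoprecipitations, and no test between sample types was possible. The sample types were taken from the labels, since ChIP reads measure no transcript. In each sample fewer cells carrying a mark and less mark per cell cannot be told apart.

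Nuclear reads ranged from 1449274 in the leaf H3 library to 5649143 in the culture H3K27me3 library. hAT elements held 2817 H3, 6721 H3K9me2, 3644 H3K27me3 and 2672 H3K4me3 reads in leaf. In the culture they held 5696, 7000, 13627 and 4603 reads in the same order. As shares of nuclear reads, H3 lay at 0.194% in leaf and 0.183% in the culture, and H3K9me2 at 0.371% and 0.215%. The H3K27me3 share was 0.169% in leaf and 0.241% in the culture, and the H3K4me3 share 0.129% and 0.132%.

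The level of a mark is given as the log2 of mark over H3, each per 1000000 nuclear reads with a pseudocount of 1 read. A change is the level in the culture minus the level in leaf. Rose and fell are used of elements or families whose change reached 2-fold with a 95% interval that excluded 0. Only those with at least 20 mark reads over both libraries and at least 10 reads in each H3 library were tested. All 3 marks were divided by the same pair of H3 libraries, so an error in H3 enters the change of each mark.

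hAT copies were short and divided about evenly between arms and pericentromeres. Their median length was 241 bp, with quartiles of 125 and 560.5 bp and a range of 19 to 8406 bp, and they covered 460 kb. 736 elements were up to 500 bp long, and 30 exceeded 2000 bp and held 20.8% of the sequence. 510 lay in the pericentromeres (49.3%, against 52.9% of all transposable elements) and 525 on the chromosome arms. 104 overlapped a gene, 335 lay within 500 bp of one, 358 at over 500 and up to 2000 bp, and 238 farther away. 64 overlapped another annotated element, where a read can be counted in both.

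These lengths limited what single copies could show. The median element held 1 H3 and 0 H3K9me2 reads in leaf, and 2 and 0 in the culture. 415 elements held no H3K9me2 read in either library. 52 of the 1035 passed the filter for at least 1 mark. The 20 elements with the most reads held 44.6% of all leaf and 45.6% of all culture H3K9me2 reads on hAT elements. Values for families and classes are therefore sums of reads over all copies, and single copies are described only where the filter was passed.

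Summed over all copies, hAT elements carried less H3K9me2 and more H3K27me3 in the culture. The H3K9me2 level was 0.93 in leaf and 0.23 in the culture, with a change of -0.70 (-0.78 to -0.62). The H3K27me3 level was -0.20 in leaf and 0.40 in the culture, with a change of 0.61 (0.52 to 0.69). H3K4me3 was below H3 in both samples, at -0.59 and -0.47, a change of 0.13 (0.03 to 0.22). H3 itself differed by -0.09 (-0.15 to -0.02). The pooled change over all transposable elements was -0.64 for H3K9me2, 0.93 for H3K27me3 and 0.24 for H3K4me3. Relative to those values the hAT differences were -0.06, -0.33 and -0.11, so H3K27me3 and H3K4me3 turn negative once all elements serve as the zero point.

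The lower H3K9me2 was concentrated on the chromosome arms. Arm copies had a level of 1.02 in leaf and -0.63 in the culture, with a change of -1.64 (-1.78 to -1.51). Copies of the family TAG2 held 1482 of the 3173 leaf and 221 of the 1315 culture H3K9me2 reads on the arms. Pericentromeric copies had 0.86 and 0.53, a change of -0.33 (-0.43 to -0.22). Library totals without intervals very dense in leaf H3, defined below, moved the pooled hAT change from -0.70 to -0.37. The same shift applies to both zones and is about as large as the pericentromeric change, so that change depends on the library totals. The intervals of the arm and pericentromere changes do not overlap. H3K27me3 showed the other order, with 0.31 (0.19 to 0.44) on the arms and 0.87 (0.76 to 0.98) in the pericentromeres. H3K4me3 had a change of 0.36 (0.21 to 0.51) on the arms and -0.02 (-0.14 to 0.10) in the pericentromeres. H3 differed between the zones too, by -0.48 on the arms and 0.16 in the pericentromeres, and its part in these values was not tested.

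By chromosome the pooled H3K9me2 change was -1.29 on chromosome 1, 0.01 on chromosome 2, -0.54 on chromosome 3, -0.41 on chromosome 4 and -1.07 on chromosome 5. The chromosome 1 value rests in large part on the TAG2 copies AT1TE08240, AT1TE20315, AT1TE76620 and AT1TE18370. They held 332, 212, 199 and 164 of its 2115 leaf reads, and 8, 5, 13 and 2 of its 1443 culture reads. H3K27me3 was higher in the culture on all 5 chromosomes, from 0.47 on chromosome 1 to 0.76 on chromosome 4.

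The difference also varied with the length of the copies. Elements of up to 500 bp had an H3K9me2 change of 0.15 (-0.02 to 0.32), with levels near that of H3 in both samples, at -0.11 and 0.04. The change was -0.42 for those over 500 and up to 1000 bp, -0.71 for those over 1000 and up to 2000 bp and -1.32 (-1.46 to -1.17) for longer elements. The 7 arm elements of over 2000 bp held 1210 H3K9me2 reads in leaf and 152 in the culture. Their level went from 2.37 to -1.31, a change of -3.68 (-4.03 to -3.33). Among these 7 are the TAG2 copies AT1TE08240, AT5TE56560, AT1TE20315, AT1TE76620 and AT1TE18370. In that order they held 332, 238, 212, 199 and 164 leaf reads, and 8, 7, 5, 13 and 2 culture reads. The value thus rests largely on copies of 1 family. The 23 pericentromeric elements of over 2000 bp had a change of -0.82 (-0.98 to -0.65), with 2040 leaf and 2475 culture reads. The shortest copies in the pericentromeres had a change of 0.61 (0.37 to 0.85), against -0.55 (-0.80 to -0.31) on the arms. A short interval also counts reads that reach into it from its neighbours, so values of the shortest copies include their surroundings. Intergenic intervals of 1 bp, 11410 in the table, held 0.956 leaf H3 reads on average.

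**Figure D1:**
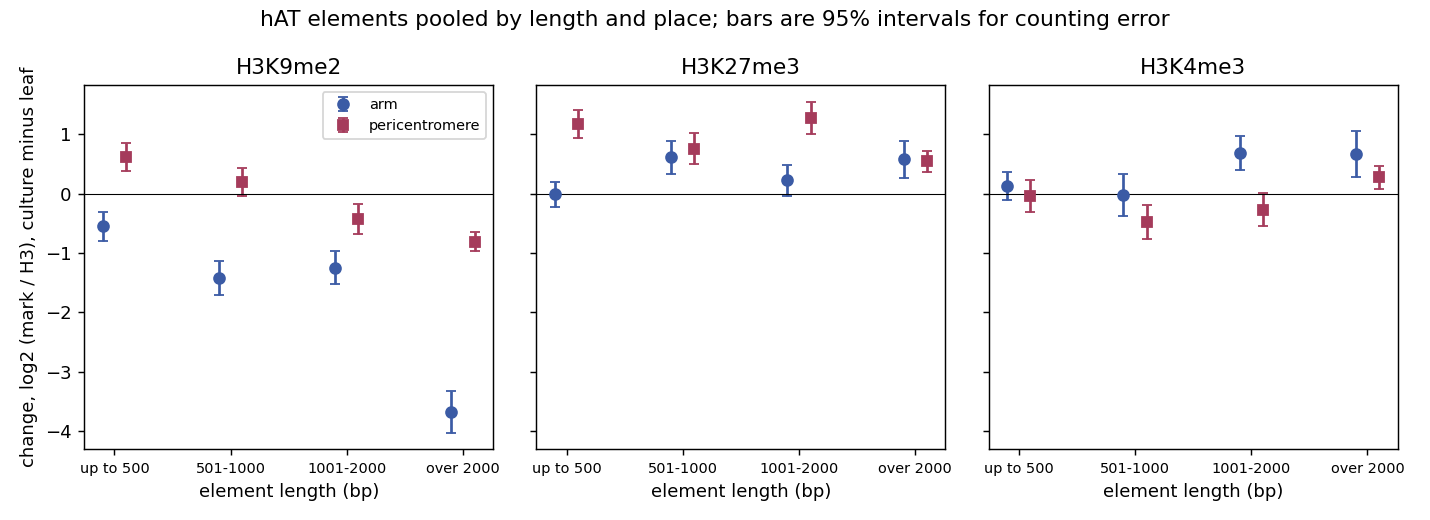
Change of each mark over H3 (log2, culture minus leaf, y axis) for hAT elements pooled by length in bp (x axis), with circles for arms, squares for pericentromeres and bars for 95% counting intervals. H3K9me2 on arm copies of over 2000 bp lies lowest, at -3.68, and on pericentromeric copies of up to 500 bp highest, at 0.61. Most leaf H3K9me2 reads of those arm copies lie on TAG2 copies.

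The intergenic intervals that touch hAT elements, 1650 in all, did not share this difference as a whole. Their H3K9me2 level was -0.67 in leaf and -0.34 in the culture, with a change of 0.32 (0.25 to 0.39). On the arms the flanks had a change of -0.15 (-0.26 to -0.04) while the elements had a change of -1.64. In the pericentromeres the flanks had a change of 0.38 (0.29 to 0.47) and the elements of -0.33. H3K27me3 was higher in the culture on flanks as on elements, by 0.47 (0.42 to 0.53). Flanks carried more H3K27me3 relative to H3 than the elements did in both samples, at 0.24 in leaf and 0.71 in the culture.

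Distance to genes was compared within each zone. Arm copies at over 500 and up to 2000 bp from a gene had the lowest H3K9me2 change, -2.05 (-2.25 to -1.85), with 1837 leaf and 608 culture reads. Arm copies within 500 bp of a gene had -1.40, those farther than 2000 bp -1.03, and those overlapping a gene -0.78 (-1.19 to -0.37). The TAG2 copies AT1TE08240, AT1TE20315 and AT1TE76620, with 332, 212 and 199 leaf but 8, 5 and 13 culture reads, lie in the first class. AT5TE56560 and AT1TE18370, with 238 and 164 of 864 leaf and 7 and 2 of 369 culture reads, lie within 500 bp. The order of the arm classes without these TAG2 copies was not tested. In the pericentromeres copies overlapping a gene had a change of 0.82 (0.20 to 1.45), from 44 leaf reads, and those within 500 bp of one had 0.50 (0.10 to 0.90). The pericentromeric copies farther away, which hold most reads, had -0.39 (-0.57 to -0.22) at over 500 and up to 2000 bp and -0.47 (-0.61 to -0.32) beyond that. Copies overlapping genes on the arms had the largest H3K4me3 change of these classes, 0.70 (0.36 to 1.04), where reads of the gene are counted in the element as well.

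Families were divided by whether their names mark them as non-autonomous. By the naming convention of repeat annotation an N marks families without a transposase, here ATHATN1 to ATHATN10, ATHATN3A and TAG3N1, with 589 elements together. Their pooled H3K9me2 level was 0.05 in leaf and 0.18 in the culture, with a change of 0.13 (-0.03 to 0.29). That value joins -0.65 (-0.89 to -0.40) for the 301 arm copies and 0.68 (0.45 to 0.90) for the 288 pericentromeric copies. The arm value rests largely on ATHATN7, which held 380 of the 705 leaf and 72 of the 474 culture H3K9me2 reads there. Arm changes of the other N-named families lay on both sides of 0, such as -1.70 in ATHATN6 and 0.78 in TAG3N1. The other families, with 446 elements, had 1.21 in leaf and 0.25 in the culture, with a change of -0.96 (-1.05 to -0.86), made up of -2.08 (-2.25 to -1.91) on the arms and -0.56 (-0.68 to -0.44) in the pericentromeres. TAG2 held 1482 of the 2468 leaf and 221 of the 841 culture H3K9me2 reads behind that arm value. The pooled H3K27me3 change was 0.88 (0.72 to 1.03) in the N-named and 0.49 (0.39 to 0.59) in the other families. Both groups lay in the pericentromeres in similar shares, 48.9% and 49.8%. The median lengths were 256 bp in the N-named and 199.5 bp in the other families. The longest N-named copy is 1597 bp long, so all 30 elements of over 2000 bp, with their change of -1.32, belong to the other families. The part of length in the contrast of families was not tested.

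21 of the 22 families passed the filter, and DRL1, with 1 element of 250 bp, did not. For H3K9me2, 6 families rose and 7 fell, while 8 did neither. Over all tested families of transposable elements 8.86% rose and 48.1% fell in H3K9me2. The median change of the tested hAT families was 0.19, against -0.94 for all families. Centred on that median, 11 hAT families rose and 1 fell, so the balance of directions depends on the zero point.

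**Figure D2:**
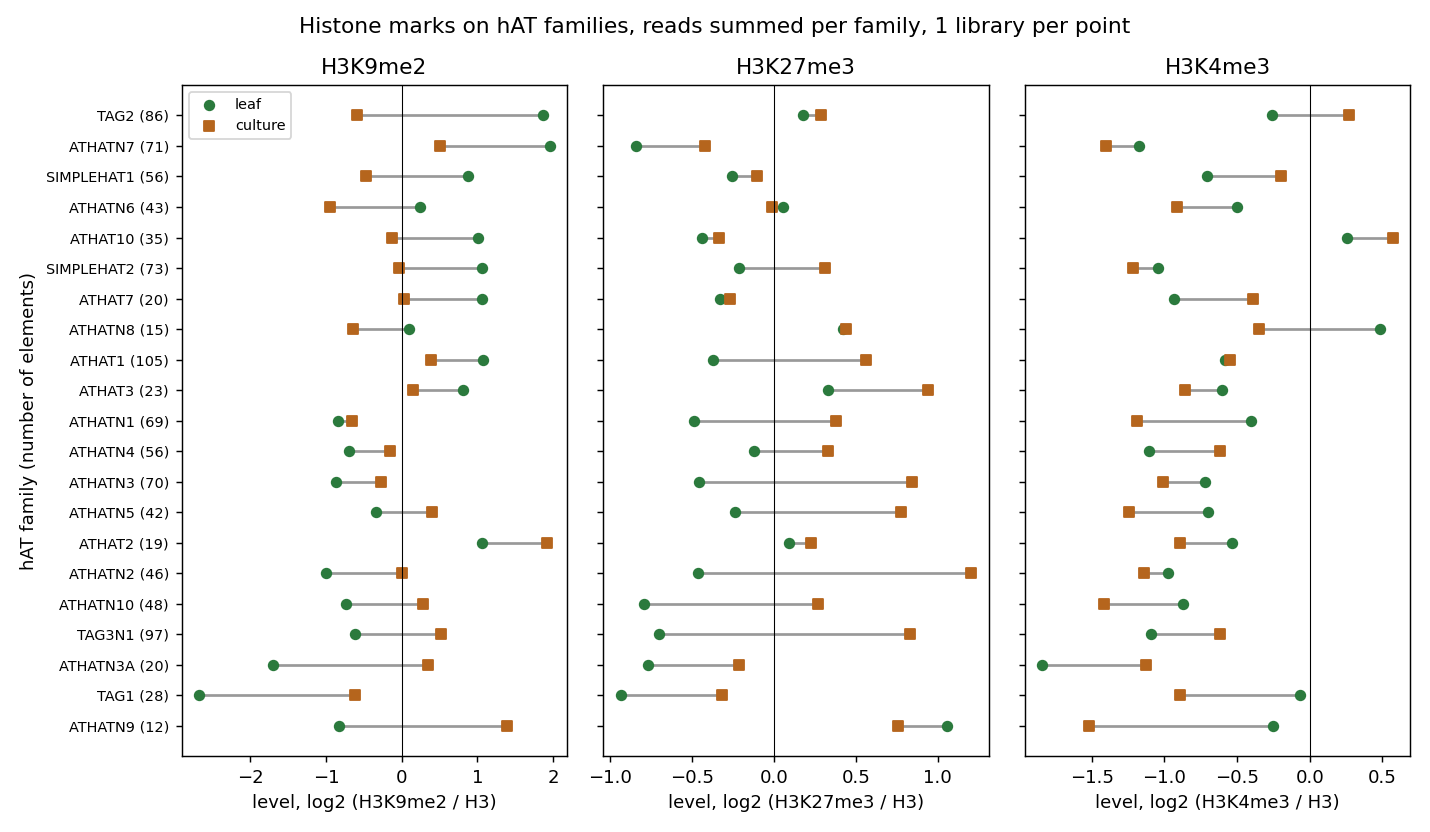
Level of each mark over H3 (log2, x axis) in leaf (circles) and culture (squares) for the 21 tested hAT families (y axis, number of elements in brackets), ordered by H3K9me2 change. TAG2 at the top went from 1.86 to -0.59 in H3K9me2, and ATHATN9 at the bottom from -0.84 to 1.39.

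TAG2 had the largest H3K9me2 fall of any tested hAT family. TAG elements were described in Arabidopsis as relatives of maize Activator. The 86 TAG2 copies held 391 H3, 1783 H3K9me2, 661 H3K27me3 and 468 H3K4me3 reads in leaf. In the culture they held 710, 493, 1571 and 957. The H3K9me2 level was 1.86 in leaf and -0.59 in the culture, with a change of -2.46 (-2.68 to -2.23). TAG2 passed the same rule under each alternative tried on it, including without its largest element (-2.20). On the arms 58 copies went from 2.08 to -1.35, a change of -3.43 (-3.72 to -3.14). In the pericentromeres 28 copies went from 1.11 to 0.61, a change of -0.50 (-0.92 to -0.08). Without TAG2 the pooled hAT change in H3K9me2 was -0.38.

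The fall in ATHATN7 came from many short copies. Its 71 elements had a median length of 550 bp, and the copy with the most reads held 7.1% of the family's leaf H3K9me2 reads. They held 106 H3 and 518 H3K9me2 reads in leaf, and 153 and 228 in the culture. The level went from 1.96 to 0.51, a change of -1.45 (-1.87 to -1.03). The 46 arm copies had a change of -2.63 (-3.24 to -2.03), and the 25 pericentromeric copies of -0.11 (-0.72 to 0.51). ATHATN7 held the highest leaf level of all tested hAT families.

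SIMPLEHAT1 followed the same division by place. It held 123 H3 and 283 H3K9me2 reads in leaf, and 105 and 79 in the culture, with a change of -1.35 (-1.86 to -0.83). Its 37 arm copies had a change of -2.63 (-3.38 to -1.88), and its 19 pericentromeric copies of 0.13 (-0.70 to 0.96). H3 on SIMPLEHAT1 also differed, by -1.33, and its H3K9me2 change without the division by H3 was -2.68.

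SIMPLEHAT2 fell by 1.11, ATHAT7 by 1.04 and ATHATN6 by 1.18 on the log2 scale. ATHAT7 was the reverse case in its place: 11 pericentromeric copies had a change of -1.38 (-1.73 to -1.04), and 9 arm copies of 0.14 (-0.48 to 0.75). Without the largest element of each family the change was -0.86 in ATHATN6 and -0.99 in SIMPLEHAT2, both under 2-fold, and -1.19 in ATHAT7.

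The fall of ATHAT10, -1.13 (-1.47 to -0.79), rests on 1 copy. That copy, AT5TE38990, is the longest hAT element and held 88.9% of the family's leaf H3K9me2 reads. Without it the other 34 copies had a change of 2.08.

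All 6 families that rose in H3K9me2 had leaf levels below that of H3. TAG1 and ATHATN9, with 7 and 13 leaf reads, passed the filter only through their culture reads. TAG1 held 7 H3K9me2 reads in leaf and 57 in the culture, against 40 and 84 H3 reads, and rose by 2.06 (0.87 to 3.26). ATHATN3A went from 24 to 127 reads, with H3 at 64 and 95, and rose by 2.05 (1.28 to 2.82). Both leaf levels were well below that of H3, at -2.68 and -1.70, and both culture levels, -0.62 and 0.35, stayed below a 2-fold excess over H3. In ATHATN3A 1 copy, AT5TE37530, held 55.9% of the culture reads, and without it the change was 1.35.

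TAG3N1, with 97 copies, held 108 H3K9me2 reads in leaf and 282 in the culture and rose by 1.14 (0.69 to 1.60). H3 differed by -0.62 there, and without the division by H3 the change was 0.53. 1 copy of TAG3N1, AT5TE49330, held 38.7% of its culture reads, and without that copy the change was 0.79, under 2-fold. ATHATN10 rose by 1.01 (0.52 to 1.51), and its change without the division by H3 was 1.19. ATHATN2, with 52 and 99 H3K9me2 reads, rose by 1.01 (0.37 to 1.65), but without the division by H3, which differed by -0.94, its change was 0.067. ATHATN9 rose by 2.23 (1.15 to 3.30), but 1 copy of its 12, AT2TE05835, held 83.2% of its culture reads. Without that copy the change was 0.71.

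ATHAT2, ATHAT1 and ATHAT3 stayed under 2-fold. ATHAT2 had the highest culture level of the tested families, 1.92, with 1.06 in leaf, a change of 0.86 (0.46 to 1.27). ATHAT1, with 105 copies, had a change of -0.70 (-0.88 to -0.52), and ATHAT3 of -0.67 (-0.96 to -0.39).

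Among single copies, 46 were tested for H3K9me2, of which 7 rose, 22 fell and 17 did neither. Over all tested transposable elements 9.01% rose and 54.2% fell in H3K9me2. The median change was -1.01 for hAT copies and -1.24 for all elements. Centred on the median of all elements, 15 hAT copies rose and 16 fell. On the arms 8 of 14 hAT copies fell and 1 rose, against 48.8% and 9.75% of all arm elements. In the pericentromeres 14 of 32 fell and 6 rose, against 55.1% and 8.89% of all pericentromeric elements. The shares that fell thus lie near the background in both zones. The median on the arms was -3.92 for hAT copies and -1.01 for all elements, and 6 of the 14 are TAG2 copies that passed the filter through their leaf reads. 27 of the 46 copies had an H3K9me2 level of at least 1 in leaf, 10 had one in the culture, and 4 had it in both. These are 58.7% in leaf and 21.7% in the culture, against 75.1% and 31.7% of all tested elements.

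**Figure D3:**
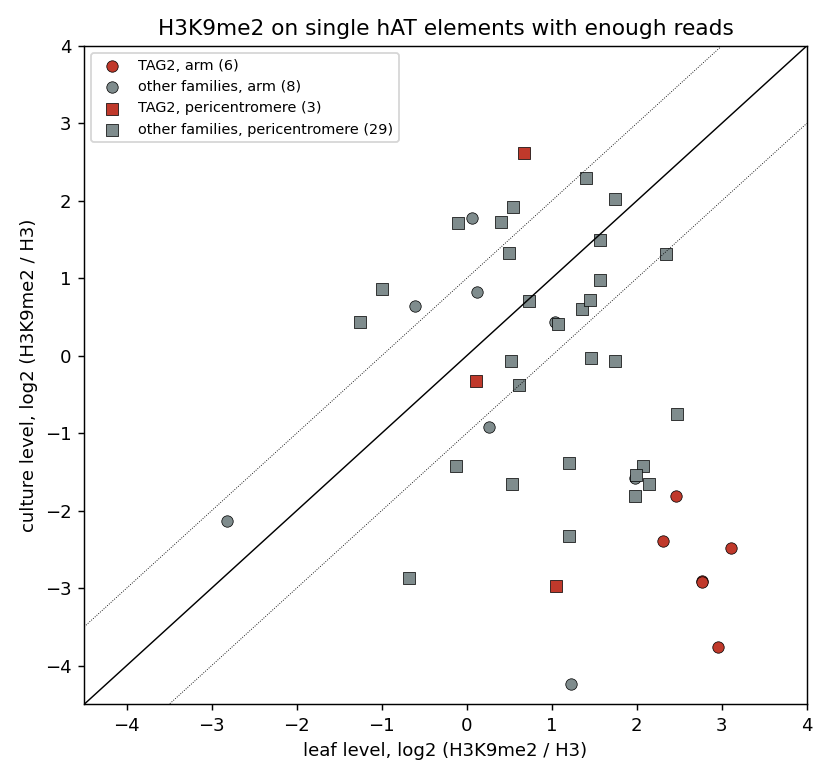
Level of H3K9me2 over H3 (log2) in leaf (x axis) and culture (y axis) for the 46 tested hAT copies, with circles for arms, squares for pericentromeres and red for TAG2; the solid line marks equal levels and dotted lines a 2-fold difference. The 6 arm TAG2 copies form the group at lower right, with leaf levels of 2.31 to 3.10 and culture levels of -3.77 to -1.81.

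Of the 58 TAG2 copies on the arms, 6 passed the filter for H3K9me2, and these 6 fell. Each passed through its leaf reads, 67 to 332 against 2 to 13 in the culture, so a fall in all 6 was largely fixed by the filter and is given as a description. The other 52 arm copies, summed, held 270 H3K9me2 reads in leaf and 184 in the culture, with 145 and 296 H3 reads, and had a change of -1.32 (-1.71 to -0.93).

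AT1TE18370 (chromosome 1, 5679269 to 5681449) held 164 H3K9me2 reads in leaf and 2 in the culture, with 16 and 38 H3 reads. Its level went from 2.96 to -3.77, a change of -6.72 (-8.56 to -4.88), the largest of any tested hAT copy. H3K27me3 reads there numbered 30 and 75, a change of -0.19 (-1.21 to 0.83), and H3K4me3 reads 19 and 65, a change of 0.89 (-0.21 to 1.98).

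AT5TE56560 (chromosome 5, 15636220 to 15639175) held 238 H3K9me2 reads in leaf and 7 in the culture, with 27 and 57 H3 reads, and fell by 5.70 (-6.90 to -4.49). AT1TE20315 (chromosome 1, 6273524 to 6276128) held 212 and 5, with 24 and 42 H3 reads, and fell by 5.68 (-7.05 to -4.31). AT1TE08240 (chromosome 1, 2531452 to 2534781), the copy with the highest leaf level, held 332 and 8, with 30 and 47 H3 reads, and fell by 5.58 (-6.74 to -4.43). In each of these the culture level lay below that of H3, at -2.92, -2.91 and -2.48.

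AT1TE60780 (chromosome 1, 18338816 to 18339763), a shorter copy of 948 bp, held 67 and 2 reads and had a change of -4.69 (-6.70 to -2.68). AT1TE76620 (chromosome 1, 23240233 to 23242673) held 199 and 13 H3K9me2 reads, with 28 and 46 H3 reads, and fell by 4.28 (-5.31 to -3.25). It was the only one of the 6 whose H3K27me3 rose, from 38 to 243 reads, a change of 1.67 (0.84 to 2.49). In AT1TE08240 H3K4me3 rose by 1.18 (0.24 to 2.13), and in the other 5 it did not pass the rule. Of 8 arm TAG2 copies tested for H3K4me3, 3 rose and 0 fell, against 22.3% and 6.62% of all arm elements. The other 2 that rose, AT1TE36605 and AT1TE91400, overlap genes and held 5 and 6 H3K9me2 reads in leaf and 6 and 2 in the culture, too few for the H3K9me2 filter.

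The intergenic flanks of these copies held few reads. Those of AT5TE56560 went from 27 H3K9me2 reads to 0, with 6 and 4 H3 reads, and those of AT1TE18370 from 17 to 0, with 8 and 3. The flanks of AT1TE20315 went from 25 to 6, with 10 and 22 H3 reads, a change of -2.70 (-4.29 to -1.11). Those of AT1TE76620 went from 30 to 8, with 18 and 29 H3 reads, a change of -2.19 (-3.54 to -0.83). The flanks of AT1TE08240 held 8 reads in both samples. In 4 of these 5 copies the flanks thus had fewer H3K9me2 reads in the culture as well.

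2 genes lay within 500 bp of a named copy. SR45 (AT1G16610), which encodes an RNA splicing factor, lies 416 bp from AT1TE18370. It held 160 H3K4me3 reads in leaf and 113 in the culture, with 37 H3 reads in each, a change of -0.14 (-0.87 to 0.60). PMAT1 (AT5G39050), which encodes an acyltransferase, lies 154 bp from AT5TE56560. It held 234 H3K4me3 reads in leaf and 134 in the culture, with 15 and 27 H3 reads, and fell by 1.25 (-2.18 to -0.31). Over tested protein-coding genes 12.7% rose and 8.55% fell in H3K4me3. Both genes held at most 2 H3K9me2 reads in each sample, too few for the filter.

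The 3 tested TAG2 copies of the pericentromeres went 3 ways. AT3TE46170 held 69 H3K9me2 reads in leaf and 3 in the culture and fell by 4.03 (-5.66 to -2.39). AT4TE13070 held 22 and 14 and did neither, with a change of -0.44 (-1.78 to 0.90). AT1TE57060 (chromosome 1, 17215222 to 17216165) held 23 and 95, with 11 and 14 H3 reads, and rose by 1.93 (0.66 to 3.21). AT1TE57060 was the copy with the largest rise among all tested hAT copies. AT3TE46170 lies near the edge of the region taken as pericentromere, at 11097261 on chromosome 3, where that region starts at 11 Mb. Among the arm copies AT1TE60780 and AT5TE56560 lie closest to such an edge, the regions ending at 18 Mb on chromosome 1 and at 15 Mb on chromosome 5.

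**Figure D4:**
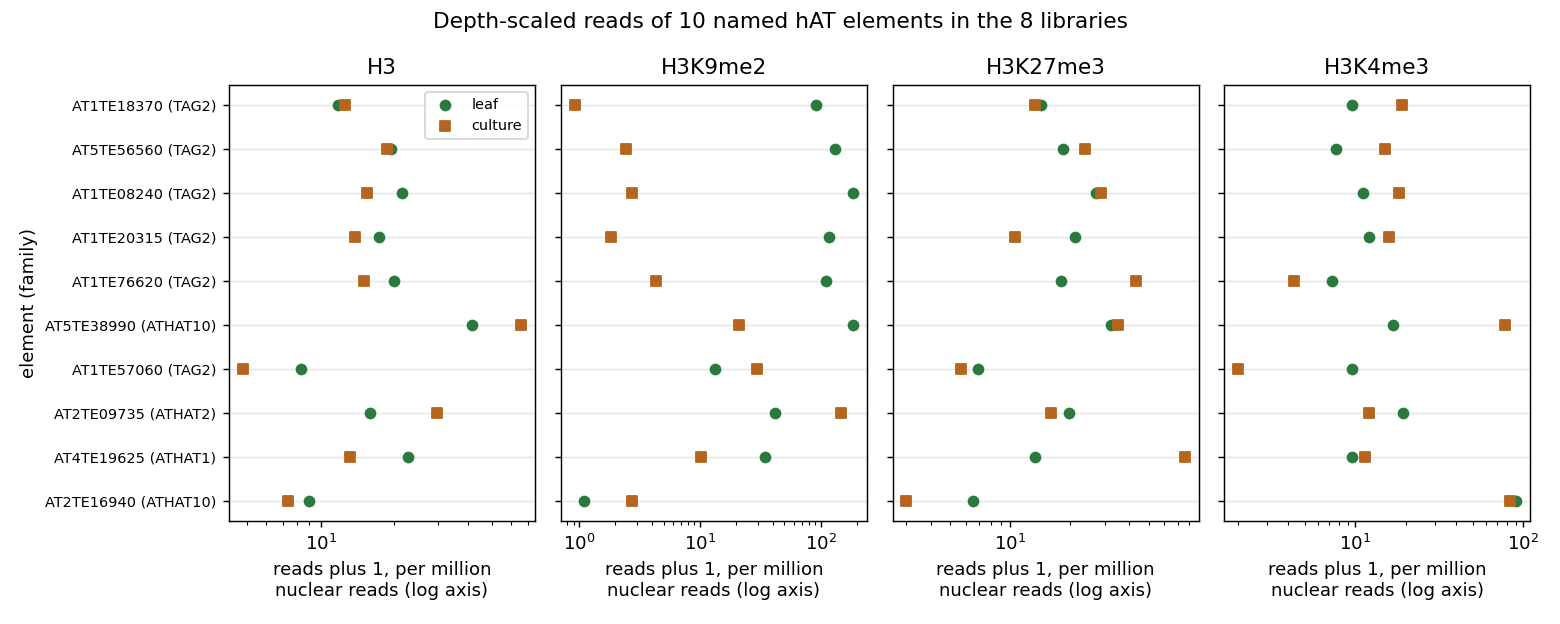
Reads plus 1 per 1000000 nuclear reads (x axis, log scale) of 10 named hAT copies (y axis) in the 4 leaf (circles) and 4 culture (squares) libraries, 1 panel per antibody. The upper 5 rows are arm TAG2 copies, whose H3K9me2 points lie far apart while their H3 points lie close together.

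The longest hAT copy fell in H3K9me2 and rose in H3K4me3. AT5TE38990, an ATHAT10 element of 8406 bp (chromosome 5, 10705883 to 10714288), held 59 H3 and 330 H3K9me2 reads in leaf, and 204 and 67 in the culture. Its H3K9me2 fell by 3.80 (-4.36 to -3.24). H3K4me3 reads went from 34 to 268, a rise of 1.53 (0.87 to 2.19), and H3K27me3 from 69 to 196, a change of -0.56 (-1.13 to 0.01). It overlaps another annotated element, and the nearest gene is 5149 bp away.

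Most other named copies that rose in H3K9me2 held few reads in leaf. AT2TE05000, AT3TE52590, AT5TE52585 and AT4TE31745 held fewer than 20 leaf reads each and passed the filter only through their culture reads. Their rises were thus largely fixed by the filter and are given as a description. AT2TE05000, an ATHAT3 element (chromosome 2, 1108693 to 1110025), went from 13 to 130 H3K9me2 reads, with 11 and 37 H3 reads, and rose by 1.82 (0.59 to 3.05). Its H3K27me3 went from 5 to 207 reads, again passing the filter only through the culture, and rose by 3.17 (1.67 to 4.67). Summed over the 29 genes within 50 kb of it, H3 had a change of 2.34, a value that a few genes with many reads can set.

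AT3TE52590 (ATHAT10) rose by 1.86 (0.56 to 3.16) from 9 reads, AT5TE52585 (ATHAT1) by 1.70 (0.58 to 2.81) from 11 and AT4TE31745 (ATHAT3) by 1.72 (0.39 to 3.05) from 16. AT5TE44095 (ATHAT1) went from 32 to 117 reads and rose by 1.33 (0.36 to 2.30). AT4TE31745 was the only arm copy that rose. Without the division by H3 its change was 0.82 and that of AT5TE44095 was 0.99, both under 2-fold.

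By the lower end of its interval the highest culture level was in AT2TE09735, an ATHAT2 element of 2802 bp (chromosome 2, 2134454 to 2137255). It held 75 H3K9me2 reads in leaf and 475 in the culture, with 22 and 92 H3 reads. The level was 1.40 in leaf and 2.29 in the culture, with a change of 0.89 (0.14 to 1.63). In the same copy H3K4me3 fell by 1.58 (-2.49 to -0.68), from 39 to 41 reads, and H3K27me3 fell by 1.22 (-2.06 to -0.37). As H3 there was higher in the culture by 0.91, the H3K4me3 change was -0.67 without the division by H3.

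For H3K27me3, 5 of the 21 tested families rose and 0 fell. Over all tested families 22.4% rose and 5.99% fell in H3K27me3, so the share that rose lies near the background. All 5 are N-named. ATHATN2 went from 91 to 396 H3K27me3 reads, with 84 and 94 H3 reads, and rose by 1.67 (1.13 to 2.20). TAG3N1 went from 122 to 606, with 133 and 187 H3 reads, and rose by 1.53 (1.11 to 1.96). ATHATN3 rose by 1.30 (0.80 to 1.79), ATHATN10 by 1.06 (0.59 to 1.53) and ATHATN5 by 1.01 (0.48 to 1.55).

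H3 was lower in the culture by 0.94 in ATHATN2 and by 0.59 in ATHATN3. Without the division by H3 the H3K27me3 changes were 0.72 in ATHATN2, 0.71 in ATHATN3, 0.92 in TAG3N1 and 0.99 in ATHATN5, all under 2-fold, and 1.24 in ATHATN10. ATHAT1 and ATHATN1, which did not pass the rule with H3, had 1.02 and 1.12 without it. The lowest H3K27me3 changes were in ATHATN9 (-0.30), ATHATN6 (-0.07) and ATHATN8 (0.02). TAG2 as a family had 0.11 (-0.11 to 0.33).

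Of 50 single copies tested for H3K27me3, 13 rose and 6 fell, against 19.5% and 13.0% of all tested elements. The median change was 0.22 for hAT copies and -0.16 for all elements. AT4TE19625, an ATHAT1 element of 3457 bp (chromosome 4, 4664041 to 4667497), held 28 H3K27me3 reads in leaf and 428 in the culture, with 32 and 40 H3 reads. It rose by 3.29 (2.44 to 4.15), and its flanks, with 11 and 131 reads, had a change of 1.98 (0.45 to 3.52). Its H3K9me2 reads numbered 62 and 32, a change of -0.99 (-1.89 to -0.09).

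AT2TE07640, an ATHAT3 element (chromosome 2, 1649687 to 1651890), went from 28 to 365 H3K27me3 reads, with 14 and 31 H3 reads, and rose by 2.28 (1.24 to 3.32). Its culture level, 2.66, was the highest of the tested copies, and its H3K9me2 fell by 1.81 (-2.89 to -0.74). Its flanks rose by 2.21 (0.92 to 3.51) in H3K27me3.

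The largest H3K27me3 falls were in AT3TE62570 (ATHAT7), AT2TE11960 (ATHAT3) and AT4TE33435 (ATHAT3). AT3TE62570 went from 57 to 74 reads, with 23 and 119 H3 reads, and fell by 2.23 (-3.04 to -1.43). AT2TE11960 fell by 1.85 (-2.96 to -0.74), and had a change of -0.85 without the division by H3. H3 in these first 2 copies was higher in the culture by 1.22 and 1.00, and both also fell in H3K9me2, by 3.53 and 3.49. AT4TE33435 went from 38 to 16 reads and fell by 1.70 (-2.84 to -0.56), with only 3 and 5 H3K9me2 reads. The highest leaf level, 1.76, was in AT3TE94260 (ATHAT3), which held 85 reads in leaf and 278 in the culture and had a change of -0.82 (-1.65 to 0.01).

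No tested hAT family had an H3K4me3 level of 1 or above in either sample, near the share over all tested families of 0.32% in leaf and 5.36% in the culture. 0 of 21 families rose and 1 fell, against 13.6% and 1.89% of all tested families. The one that fell, ATHATN9, went from 23 to 22 reads, with 19 and 58 H3 reads, a change of -1.26 (-2.36 to -0.16). It was -0.81 without the division by H3 and -0.59 without its largest element. The highest family changes, 0.71 in ATHATN3A, 0.55 in ATHAT7 and 0.53 in TAG2, were under 2-fold. The next lowest were -0.83 in TAG1 and -0.83 in ATHATN8.

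Of 49 single copies tested for H3K4me3, 14 rose and 2 fell, against 15.1% and 10.6% of all tested elements. The median change was -0.01 for hAT copies and -0.02 for all elements. Without the division by H3, 7 rose and 5 fell. AT1TE72615, an ATHAT1 element of 1057 bp (chromosome 1, 21991450 to 21992506), went from 8 to 69 H3K4me3 reads, with 15 and 19 H3 reads, and rose by 3.00 (1.62 to 4.38). For H3K4me3 it passed the filter only through its culture reads. Its H3K9me2 went from 78 to 6 reads and fell by 3.56 (-5.03 to -2.10). The level of H3K4me3 there, 1.65 in the culture, was above H3, and the nearest gene is 1075 bp away.

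AT4TE09995 (ATHAT3) rose by 1.83 (0.55 to 3.12) from 17 to 19 H3K4me3 reads. Its H3 reads numbered 34 and 13, and without the division by H3 its change was -0.59, so the direction depends on H3. AT5TE49130 (ATHAT3) fell by 1.39 (-2.45 to -0.33), but without the division by H3 its change was -0.91, under 2-fold. AT5TE50045 (ATHAT1) had a change of -0.89 (-1.69 to -0.10), also under 2-fold. The highest H3K4me3 level in both samples was in AT2TE16940 (ATHAT10; chromosome 2, 4005637 to 4007377), with 188 reads in leaf and 288 in the culture. Its level was 3.34 and 3.49, and its H3K9me2 reads numbered 1 and 8. It overlaps another annotated element, and its nearest gene is 6375 bp away.

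The pooled H3K9me2 change of hAT elements lay within the range of the other superfamilies. The pooled H3K9me2 change was -0.36 for MuDR, -0.60 for En-Spm, -0.98 for Harbinger, 0.61 for Helitrons, -1.71 for Copia, -0.83 for Gypsy and -1.15 for LINE/L1. On the arms Harbinger had -2.27 (-2.44 to -2.11) and Copia -2.67 (-2.72 to -2.62), both below the hAT value of -1.64. In the pericentromeres hAT (-0.33) lay beside Harbinger (-0.29) and MuDR (-0.48). Arm Gypsy elements stood apart, at 2.64, with 36743 leaf and 22781 culture H3 reads on 413 elements. Those reads enter the arm value of all elements, -0.08. No hAT element was H3-dense, meaning a leaf H3 density more than 20 times that of the median gene. Without all H3-dense intervals the pooled hAT H3K9me2 change was -0.37, through the library totals alone. The same upward shift applies to the H3K9me2 change of every hAT class, family and copy. The flanks were not recomputed with those totals.

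**Figure D5:**
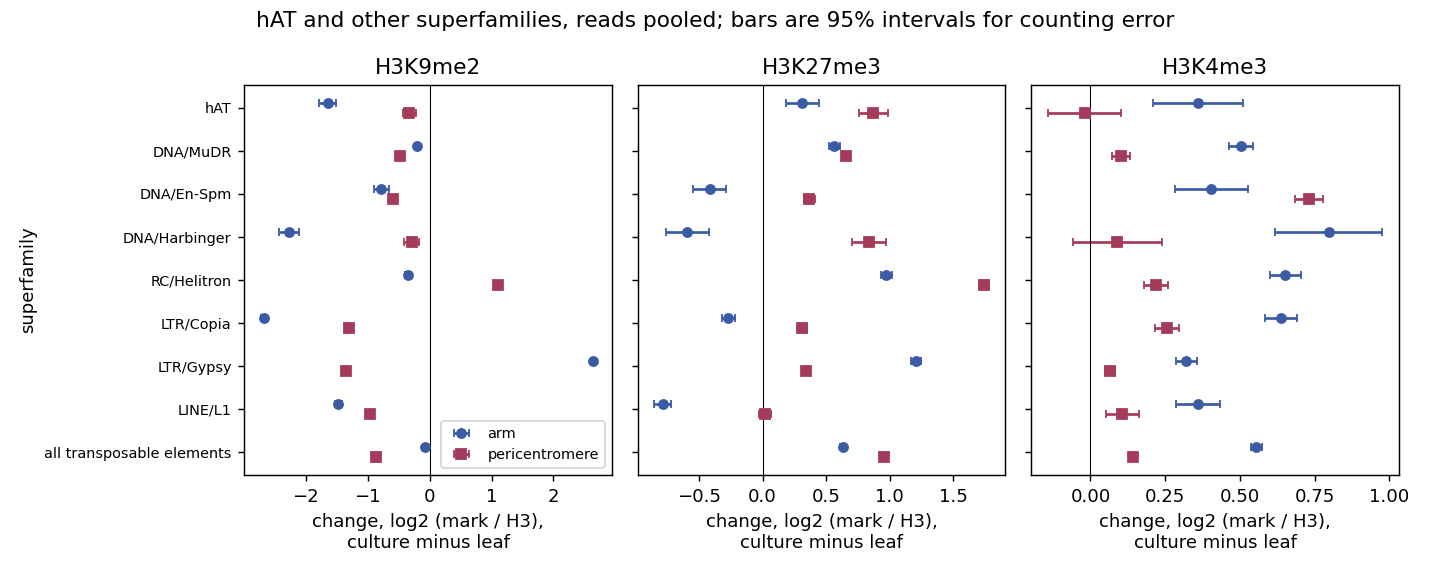
Change of each mark over H3 (log2, culture minus leaf, x axis) for hAT and 7 other superfamilies and for all elements (y axis), with circles for arms, squares for pericentromeres and bars for 95% counting intervals. In H3K9me2 the arm value of hAT, -1.64, lies between those of LINE/L1, -1.47, and Harbinger, -2.27.

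DAYSLEEPER (AT3G42170) is a host gene derived from a hAT transposase that Arabidopsis needs for normal development. It held 74 H3K4me3 reads in leaf and 125 in the culture, with 41 and 125 H3 reads, a change of -0.48 (-1.13 to 0.18). Its H3K27me3 went from 51 to 78 reads and fell by 1.26 (-1.98 to -0.55). Over tested protein-coding genes 2.76% rose and 26.7% fell in H3K27me3. Its H3K9me2 reads numbered 15 and 20, a change of -0.94, and its H3K9me2 level, -1.71 in leaf, was below that of H3. The leaf H3K9me2 level of the host gene thus lay below the 1.73 of hAT copies over 2000 bp, summed. Single long copies varied, and AT3TE94260, of 2052 bp, had a leaf level of -2.82.

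Genes that act in setting or removing H3K9me2 and DNA methylation were compared from a list of 22. In H3K4me3 4 of the 22 rose and 1 fell, with a median change of 0.29, against 0.11 for all tested genes. Of all tested protein-coding genes 12.7% rose and 8.55% fell. AGO6 and AGO4, Argonaute proteins that bind small RNAs in RNA-directed DNA methylation, rose by 1.78 (0.86 to 2.69) and 1.57 (0.72 to 2.43). CMT3, a DNA methyltransferase recruited by H3K9me2, rose by 1.15 (0.42 to 1.89), and SHH1, a reader of histone H3 that recruits RNA polymerase IV, by 1.11 (0.00 to 2.21). KYP, the main H3K9 methyltransferase, had a change of 0.78 (0.00 to 1.56), and DDM1, a chromatin remodeller needed for transposon silencing, of 0.76 (-0.14 to 1.67).

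In H3K27me3 0 of the 22 genes rose and 5 fell (SUVH5, RDR2, AGO4, DRD1 and DMS3), with a median of -0.49, against -0.57 for all tested genes. Of all protein-coding genes 2.76% rose and 26.7% fell in H3K27me3, so the count that fell lies near the background. 14 of the 22 were tested for H3K9me2, of which 5 rose and 1 fell. Each of the 5 held fewer than 20 leaf reads and passed the filter only through the culture. AGO4, which fell, passed only through leaf, with 23 reads there and 8 in the culture. These directions were thus largely fixed by the filter. Over tested protein-coding genes 21.6% rose and 10.7% fell in H3K9me2. SUVH5, another H3K9 methyltransferase, held 3 H3K9me2 reads in leaf and 127 in the culture, with 40 and 54 H3 reads, a rise of 4.83 (3.28 to 6.38). NRPD1, the largest subunit of RNA polymerase IV, held 64 H3 reads in leaf and 2236 in the culture. Its H3K9me2 reads went from 13 to 2299 and its H3K4me3 reads from 127 to 1480, so every antibody gave many more reads there in the culture, and its H3K4me3 fall of 1.21 (-1.65 to -0.77) rests on that H3 count. The reads do not report transcript or protein levels of these genes.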

How the data were processed

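The authors deposited raw counts of reads in 109972 annotated intervals for each of the 8 libraries. The submitters' processing notes name Bowtie2, bedtools and the TAIR10 genome; what was done with duplicates and with reads that map to several places is not given in the sources used here, and the latter could move reads between similar copies. How leaves were fixed is not stated in the labels.

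Members are rows of type TE and superfamily DNA/HAT. Levels, changes, intervals (delta method on Poisson counts) and calls were computed over all elements or families in Python 3.11.15 with numpy 2.4.6 and pandas 2.3.3, plotted with matplotlib 3.10.9 and tested on simulated data. Pericentromeres, taken from an earlier analysis of these files, were 12 to 18 Mb of chromosome 1, 1 to 7 Mb of chromosome 2, 11 to 17 Mb of chromosome 3, 1 to 6 Mb of chromosome 4 and 9 to 15 Mb of chromosome 5. Gene symbols came from the RefSeq table of the species.

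Families described were the 5 highest and 5 lowest in H3K9me2 change and the 3 each way for the other marks. Copies were the 6 largest rises and falls in H3K9me2, 3 each way in the other marks, ranked by the interval end nearer 0, and the highest level of each mark in each sample. AT1TE36605, AT1TE60780, AT1TE91400, AT3TE46170 and AT4TE13070 were named after their values were seen, to complete the TAG2 copies, as were ATHAT1, ATHAT2, ATHAT3 and the families that passed a call. The members, gene lists and rules were chosen with earlier results of these data known. Alternatives were no division by H3, another pseudocount, no filter, centring, a 3-fold rule, library totals without H3-dense intervals, and leaving out families, elements or overlapping copies.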

Additional observations from a re-analysis of the deposited data

How the results depend on the processing

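With 1 library per group there is no replicate to leave out, and counting intervals understate the true error. No paired analysis was possible because each group has 1 library. The pooled H3K9me2 change of hAT elements, -0.70, was -0.79 without the division by H3, -0.0629 centred on all transposable elements, -0.37 without H3-dense intervals, -0.46 without copies overlapping a gene or element, -0.38 without TAG2 and -0.93 over elements longer than 500 bp. The last 2 settings were chosen after seeing the data, as were leaving out a family's largest element and summing the arm TAG2 copies below the filter. The pooled H3K9me2 change was negative under all of these. Given the main interval of -0.78 to -0.62, however, the centred value cannot be told from 0. The pooled H3K27me3 change was 0.52 without H3, -0.33 centred, 0.52 without ATHAT1 and 0.69 without TAG2. The pooled H3K4me3 change was -0.11 centred and -0.00026 without overlapping copies. The H3 difference was -0.18 centred and 0.0068 over elements longer than 500 bp.

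Without the filter on low counts 32 copies rose and 66 fell in H3K9me2, 37 and 25 in H3K27me3, and 24 and 15 in H3K4me3. Centred on the median element, 15 rose in H3K9me2. Under a 3-fold rule 3 copies fell in H3K27me3, and 4 rose and 0 fell in H3K4me3. Without H3, 7 copies rose and 5 fell in H3K4me3. For families in H3K9me2, 11 rose and 1 fell when centred, and 3 and 1 under the 3-fold rule. In H3K27me3, 3 families rose (ATHAT1, ATHATN1 and ATHATN10, of which ATHATN10 alone had also risen with H3) and 1 fell (SIMPLEHAT1, -1.18) without H3. 3 rose when centred, and 1 under the 3-fold rule. In H3K4me3, 2 families fell without H3, 3 when centred and 0 under the 3-fold rule.

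For 46 values of named families and copies, 206 recomputations were made. 180 kept the call or its absence, 22 lost the call and 2 gained it. In the other 2 a called value changed direction, ATHAT10 in H3K9me2 without its largest copy (2.08) and AT4TE09995 in H3K4me3 without H3 (-0.59). In both, the change of setting is the removal of the reads the value rested on. Values without a call were counted as kept even where their sign changed, as for ATHATN8 in H3K27me3 (0.02, and -0.41 without H3). For other changes the cause was not tested. Depth limits single copies most, since 989 of 1035 were not tested for H3K9me2.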
